A study of Mus musculus with 4 samples.

Results

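Immunoglobulin constant region genes and genes of the antibody-secreting plasma cell were followed in sorted cells of the mouse femur. The 10 genes were taken by their names from a table of 47643 genes. They are the heavy chain constant regions Igha, Ighm, Ighd, Ighg1 and Ighg2b, the light chain constant regions Igkc and Iglc1, and the plasma cell genes Jchain, Mzb1 and Sdc1. All 10 had reads in at least 1 library.

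The cells came from the periosteum, the membrane that covers bone, of femoral shafts from mice with 1 Sox9CreErt2 allele, a Cre recombinase made from the Sox9 locus and active only after tamoxifen, and 1 allele of a Td-Tomato reporter at Rosa26, driven by the CAG promoter once Cre has acted. TdTomato-positive cells, which had made Cre at the time of tamoxifen or descend from such cells, gave 2 libraries, and TdTomato-negative cells of the same digests gave the other 2. Both groups carried both alleles and received tamoxifen, 3 injections of 100 µL at 20 mg/mL in corn oil, 48 h apart. Intact bones were taken 2 weeks after the last dose, and age and sex are not in the labels. Digestion for all libraries was with the enzyme Liberase at 100 µg/mL for 2 h. For each library about 10000 cells from 18 femora of 9 mice are recorded, and there were 2 collections. Levels are RPKM, the reads per kilobase of genomic span, introns included, per M reads of depth, and the log2 fold is the authors' mean log level in positive cells minus that in negative cells. Mice were pooled within a collection, so no p-value measures the spread between mice, and the spread between libraries may be technical. The authors' lognormal model uses shrinkage, and in it genes of similar fold could have a similar p despite unlike spread between libraries. Its p is therefore a poor measure of how well a gene's own libraries agree. Depths inferred from the values were 32.0 and 41.6 M reads in TdTomato-positive libraries, against 17.0 and 74.0 M in TdTomato-negative ones. The libraries are called by these depths because no value carries a collection number.

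A B cell assembles a heavy and a light chain and first shows IgM on its surface, with IgD added from the same primary transcript by alternative splicing. After activation it can switch the heavy chain constant region to an IgG, IgE or IgA class while the variable region stays the same. Plasma cells secrete the antibody, and many of them live in bone marrow and, for IgA, in mucosal tissue. The J chain joins secreted IgA and IgM into polymers through a cysteine in a short tail of the heavy chain, and IgG lacks that tail.

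The last coding bases of the secreted heavy chains are shown because this tail sets the classes that take up J chain apart from the others. The sequences are GENCODE M21 transcripts on GRCm38, 60 bases each, read 5′ to 3′ on the minus strand, and the capitals mark the cysteine codon before the last codon. They lie at chr12:113258771-113258830 for Igha, chr12:113420870-113420929 for Ighm, chr12:113328979-113329038 for Ighg1 and chr12:113306392-113306451 for Ighg2b.
Igha: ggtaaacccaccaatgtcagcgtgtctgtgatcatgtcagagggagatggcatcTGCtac
Ighm: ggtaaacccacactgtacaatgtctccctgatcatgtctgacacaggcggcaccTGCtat
Ighg1: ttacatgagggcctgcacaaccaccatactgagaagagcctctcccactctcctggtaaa
Ighg2b: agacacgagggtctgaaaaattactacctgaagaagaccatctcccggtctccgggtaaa

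In both TdTomato-positive libraries Igha, Ighd, Ighg1, Ighg2b, Igkc and Jchain lay below both negative libraries. The Ighm, Iglc1 and Mzb1 values of the 2 groups overlapped, and Sdc1 lay higher. Of the 10 genes, 9 had a lower and 1 a higher mean log level in positive cells, and 0 passed the authors' FDR of 0.05. Of all genes in the authors' deposited table, 0.00630% passed it. Without adjustment, 4 of the 10 had a p below 0.05 in the authors' deposited table, Igha, Jchain, Ighg2b and Ighg1. All 4 were lower in positive cells, beside 0.533% of genes with any read that were lower at that p. Over all genes, those without reads included, 0.296% were lower and 0.598% higher at that p. Both positive libraries lay below both negative ones in 6 genes, against 11.4% of the genes with any read, and above both in 1 gene, against 12.4%. The median log2 fold of the 10 was -2.40, and it stayed at -2.40 with Ighg1 at its bound, beside -0.03 over all genes with any read. Limma on log2(level + 1), run on all genes with any read, gave 0 genes an adjusted p below 0.05. Its unadjusted p was below 0.05 for 2 of the 10, Igha and Jchain, both lower, beside 2.58% of all genes tested that were lower at that p and 4.89% that were higher. With 2 libraries in each group an exact permutation test over libraries cannot give a two-sided p below 0.333. In bulk libraries such as these, fewer cells of a type and less RNA per cell cannot be told apart.

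**Figure D1:**
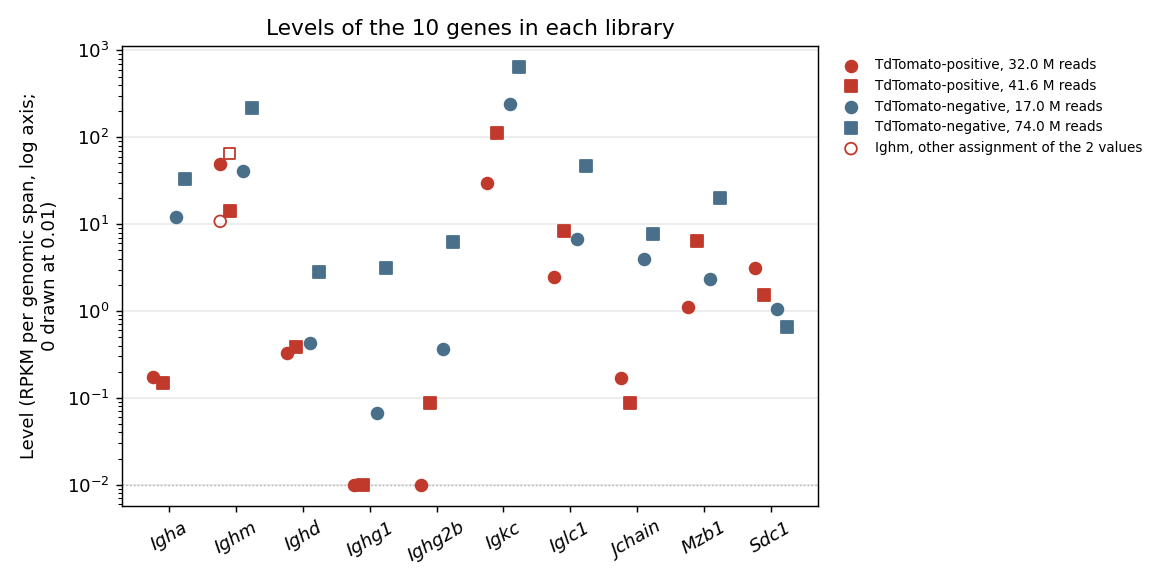
Level of each of the 10 genes in each library, in RPKM per genomic span on a log axis, with values of 0 drawn at 0.01. Red points are TdTomato-positive and blue points TdTomato-negative libraries, and open points show the other possible assignment of the 2 positive Ighm values. Igha, Ighd, Ighg1, Ighg2b, Igkc and Jchain have both positive points below both negative ones, and Sdc1 has both above.

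Igha (ENSMUSG00000095079.6, chromosome 12, 113254830 to 113260236, mm10) encodes the constant region of IgA. It held 30 and 33 reads in positive libraries of 32.0 and 41.6 M reads, against 1116 and 13176.4 reads in the negative libraries of 17.0 and 74.0 M. The mean level per genomic span was 0.160 RPKM in positive cells and 22.5 RPKM in negative cells, a 141-fold lower mean in positive cells. The log2 fold of -6.32, with a p of 1.20e-05 and an FDR of 0.0953 in the authors' deposited table, had the smallest p of the 13914 genes with any read and a lower value, and it did not pass. In limma on log2(level + 1) the log2 fold was -4.19 with all libraries and -3.50 when the negative library of 74.0 M was left out.

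Ighm (chromosome 12, 113418558 to 113422730), the constant region of IgM, was the most abundant heavy chain in every library. Its positive values are known only as a pair. They were either 49.8 RPKM at 32.0 M reads and 14.1 RPKM at 41.6 M, or 10.8 and 64.8 RPKM in that order, against 40.7 and 217 RPKM in the negative libraries. Under either reading 1 positive library lay above the negative library of 17.0 M reads, so the groups overlapped. The log2 fold was -1.86 with a p of 0.213 in the authors' deposited table.

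Ighd (chromosome 12, 113406604 to 113416324) encodes the constant region of IgD, which mature B cells carry beside IgM. Its level was 0.328 and 0.386 RPKM in positive cells, from 102 and 156 reads, against 0.430 and 2.78 RPKM in negative cells, from 71 and 2002 reads. The groups did not overlap, with the nearest libraries at 0.386 and 0.430 RPKM. These rest on 156 and 71 reads, and whether the gap exceeds counting error was not tested. The log2 fold of -1.48 had a p of 0.300 in the authors' deposited table. When the negative library of 74.0 M was left out, the limma log2 fold on log2(level + 1) was -0.08, against -0.78 with all libraries, on a scale whose offset of 1 RPKM exceeds the levels that remain.

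The IgG constant regions were close to the limit of detection in positive cells. Ighg1 (chromosome 12, 113325240 to 113330523) had 0 reads in both positive libraries, against 6 and 1217 in negative libraries, or 0.0669 and 3.11 RPKM. Set against a floor of 3 reads in each positive library, its mean level was at least 101-fold lower in positive cells. Ighg2b (chromosome 12, 113302965 to 113307933) had 0 and 18 reads in positive cells, or 0 and 0.0871 RPKM, against 31 and 2261 reads in negative cells, or 0.368 and 6.15 RPKM. Neither gene's groups overlapped, and in the authors' deposited table the log2 folds were -2.91 with a p of 0.0408 for Ighg1 and -3.68 with a p of 0.00987 for Ighg2b, both with an FDR of 1.00. Most Ighg1 and Ighg2b reads came from 1 library. Limma on log2(level + 1) over all genes with any read gave them an unadjusted p of 0.305 and 0.234. With the negative library of 74.0 M left out, the limma log2 fold on log2(level + 1) was -0.09 for Ighg1 and -0.39 for Ighg2b, against -1.07 and -1.58 with all libraries. The levels that then remain are below the offset of 1 RPKM, so this scale understates their difference.

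The other IgG and IgE constant regions had 0 reads in both positive libraries. Ighg2c had 0 and 1103.8 reads in the negative libraries, Ighg3 had 30 and 27, and Ighe had 0 and 12. Ighg3 was the only one of these with reads in both negative libraries, at 1.07 and 0.220 RPKM, and its mean level was at least 12.8-fold lower in positive cells against a floor of 3 reads in each library. In the authors' deposited table the p was 0.0544 for Ighg2c, 0.0640 for Ighg3 and 0.748 for Ighe. The IgG genes share 76.1% to 86.3% of their aligned coding bases, and Ighg2b and Ighg2c are the closest pair. How far reads were split between these genes was not tested.

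The isotypes were then compared as shares within each library, where depth cancels. Igha made up 0.443% of the reads of the 5 heavy chain genes in the positive library of 32.0 M reads (exact 95% interval 0.299% to 0.632%) and 1.25% in that of 41.6 M (0.860% to 1.75%). In the negative libraries it made up 27.2% at 17.0 M reads (25.8% to 28.6%) and 15.4% at 74.0 M (15.2% to 15.6%). With the other assignment of Ighm the positive shares were 1.91% and 0.288%, so both positive libraries lay below both negative ones either way. These intervals cover counting error only, as reads without molecular identifiers are not independent molecules.

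Ighm made up most of the remaining reads in every library. Its share was 98.0% and 92.2% in positive cells, or 91.6% and 98.2% with the other assignment, against 70.2% and 78.2% in negative cells. Ighd made up 1.51% and 5.89%, or 6.51% and 1.36%, in positive cells and 1.73% and 2.34% in negative cells, so that its share overlapped. Ighg2b made up 0 and 0.680% in positive cells and 0.755% and 2.64% in negative cells. For Ighg1, the 0 reads in positive cells allow a share of up to 0.0443% at 32.0 M reads and 0.113% at 41.6 M, or 0.191% and 0.0262% with the other assignment of Ighm. In the negative libraries Ighg1 made up 0.146% and 1.42%. The 2 negative libraries differed from each other beyond counting error in the shares of all 5 genes.

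**Figure D2:**
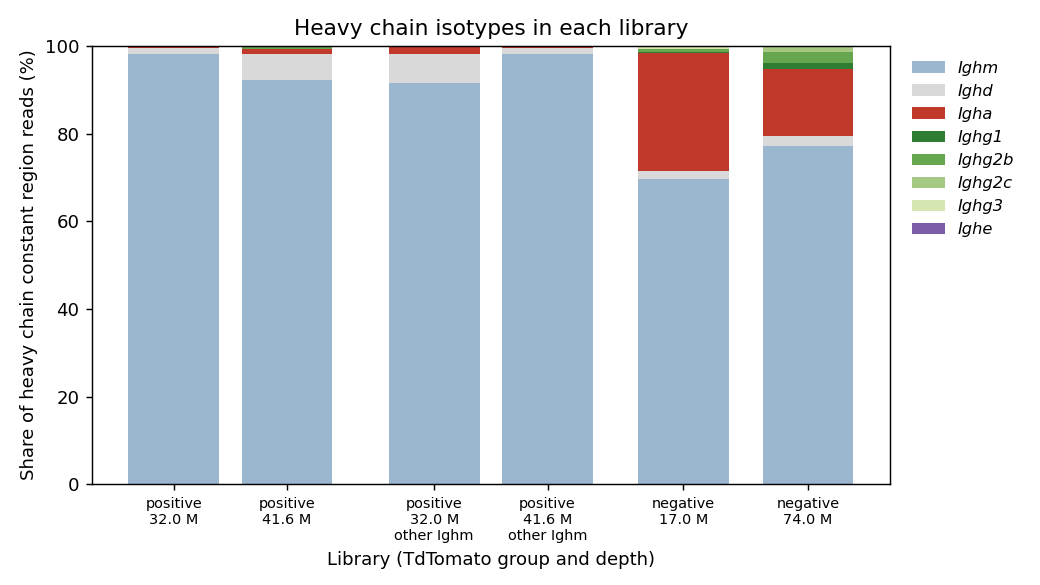
Share of each constant region among all heavy chain constant region reads (percent), Ighg2c, Ighg3 and Ighe included, in each library. The middle bars repeat the positive libraries with the other assignment of Ighm. Igha, in red, is a thin band in positive cells and takes 27.0% and 15.2% in negative cells.

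Among the light chains, Igkc (chromosome 6, 70726435 to 70726966), the constant region of kappa, was read at 29.8 and 112 RPKM in TdTomato-positive libraries, against 244 and 647 RPKM in negative cells. The groups did not overlap, and the log2 fold was -2.82 with a p of 0.0730 in the authors' deposited table. A long noncoding gene on the same strand, Gm43291, overlaps Igkc and held 32 and 78 reads in positive cells and 22 and 785 in negative cells. Iglc1 (chromosome 16, 19061618 to 19062071), a lambda constant region, was at 2.48 and 8.42 RPKM in TdTomato-positive libraries, against 6.75 and 46.6 RPKM in negative cells. An antisense gene that spans Iglc1, 2010309G21Rik, had 0 reads in both positive libraries and 0 and 8.11 in negative cells. The positive library of 41.6 M reads lay above the negative one of 17.0 M for Iglc1, so the groups overlapped, and in the authors' deposited table the log2 fold of Iglc1 was -1.97 with a p of 0.191.

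Lambda has several constant region genes, and their ends are shown to make clear which of them the reads can tell apart. Iglc2 and Iglc3 share 96.5% of their aligned coding bases, while Iglc1 shares 74.8% with Iglc2 and 75.4% with Iglc3. Each line is the last 60 coding bases on the minus strand in GENCODE M21, and the capitals mark bases that differ from Iglc1, 13 in Iglc2 and 12 in Iglc3. They lie at chr16:19061755-19061814 for Iglc1, chr16:19198539-19198598 for Iglc2 and chr16:19065368-19065427 for Iglc3.
Iglc1: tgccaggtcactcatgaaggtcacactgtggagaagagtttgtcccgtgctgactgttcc
Iglc2: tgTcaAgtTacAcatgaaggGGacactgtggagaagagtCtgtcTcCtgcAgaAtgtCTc
Iglc3: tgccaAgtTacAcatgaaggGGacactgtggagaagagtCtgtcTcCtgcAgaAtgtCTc

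Iglc2 had 31 and 335.7 reads in positive cells and 113 and 2144.9 in negative cells, and Iglc3 had 17 and 126.3 against 50 and 1402. The counting could split the reads of this near-identical pair, so their separate values are uncertain. Lambda, as Iglc1, Iglc2 and Iglc3 together, made up 14.2% of light chain reads in the positive library of 32.0 M reads (exact 95% interval 11.5% to 17.3%) and 20.1% in that of 41.6 M (18.7% to 21.5%). In the negative libraries it made up 8.90% at 17.0 M (7.79% to 10.1%) and 16.7% at 74.0 M (16.3% to 17.1%). The lambda share thus overlapped between the groups, unlike the Igha share. Iglc4 had 0 reads in every library.

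Jchain (ENSMUSG00000067149.6, chromosome 5, 88519809 to 88527891) was at 0.170 and 0.0862 RPKM in positive cells, from 44 and 29 reads, against 3.93 and 7.65 RPKM in negative cells, from 539 and 4573 reads. The mean level was 45.1-fold lower in positive cells. Its log2 fold of -4.68 had a p of 0.00108 and an FDR of 1.00 in the authors' deposited table. In limma on log2(level + 1) the log2 fold was -2.53 with all libraries and -2.13 when the negative library of 74.0 M was left out.

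Mzb1 and Sdc1 did not follow Jchain. Mzb1 (chromosome 18, 35647266 to 35649367) encodes a protein of the endoplasmic reticulum that helps fold and secrete IgM, made by marginal zone B cells as well as plasma cells. It was at 1.12 and 6.46 RPKM in TdTomato-positive libraries, against 2.33 and 19.9 RPKM in negative cells, and the groups overlapped. In the authors' deposited table its log2 fold was -1.34 with a p of 0.360, and in limma on log2(level + 1) it was 0.26 when the negative library of 74.0 M was left out, the opposite direction. Sdc1 (chromosome 12, 8771323 to 8793715) encodes syndecan-1, a surface proteoglycan used to sort plasma cells that epithelial and some stromal cells also carry. It was at 3.15 and 1.55 RPKM in TdTomato-positive libraries, against 1.05 and 0.656 RPKM in negative cells, so that both positive libraries exceeded both negative ones. Its log2 fold was 1.27 with a p of 0.372 in the authors' deposited table.

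Levels per exon length allow the genes to be set beside each other. In the negative library of 17.0 M reads the order was Igkc at 244 RPKM of exon, Ighm at 90.1, Igha at 24.6, Jchain at 12.6, Iglc1 at 6.75, Sdc1 at 6.16 and Mzb1 at 4.02, with Ighd, Ighg2b and Ighg1 below. In that of 74.0 M reads it was Igkc at 647 RPKM of exon, Ighm at 480, Igha at 66.7, Iglc1 at 46.6, Mzb1 at 34.5, Jchain at 24.6, Ighd at 14.2, Ighg2b at 11.4, Ighg1 at 6.34 and Sdc1 at 3.86. Igha thus stood next after Igkc and Ighm in both negative libraries. In positive cells Igha was at 0.352 and 0.297 RPKM of exon, below Ighd at 1.68 and 1.97, and Sdc1 at 18.5 and 9.11 and Mzb1 at 1.93 and 11.2 stood above both. The negative library of 74.0 M reads held the higher negative level in 9 of the 10 genes, all but Sdc1.

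On the scale of the deposited group means multiplied by genomic span, in which the offset is included and the shallower library of a group weighs more, Igha again followed Igkc and Ighm in negative cells. In positive cells these authors' values were 1813 for Igkc, 950 for Ighm, 143 for Iglc1, 97.9 for Mzb1, 70.6 for Sdc1, 12.5 for Ighd, 7.25 for Igha, 6.47 for Jchain, 3.81 for Ighg2b and 2.77 for Ighg1. The value of Ighg1 is the offset alone, since it had 0 reads. In negative cells the authors' values were 11557 for Igkc, 2667 for Ighm, 584 for Igha, 517 for Iglc1, 207 for Mzb1, 171 for Jchain, 56.0 for Ighg2b, 38.9 for Sdc1, 35.1 for Ighd and 26.6 for Ighg1.

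Setting each gene against Igkc within a library removes the overall difference in kappa. Igha had 5.93 and 1.33 reads per 100 Igkc reads in TdTomato-positive libraries, against 50.7 and 51.7 in negative cells. Jchain had 8.70 and 1.17 reads per 100 Igkc reads in TdTomato-positive libraries, against 24.5 and 18.0 in negative cells. Both genes were therefore lower also relative to kappa, with no overlap between the groups. The 2 negative libraries, which differed in the level of Igkc, gave nearly the same Igha ratio. Ighg2b had 0 and 0.727 reads per 100 Igkc reads in TdTomato-positive libraries, against 1.41 and 8.88 in negative cells.

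Mzb1, Iglc1, Ighd and the B-cell receptor gene Cd79a did not show this pattern. Mzb1 had 14.8 and 22.8 reads per 100 Igkc reads in TdTomato-positive libraries, against 3.77 and 12.2 in negative cells. Cd79a, a signalling chain of the B-cell receptor, had 137 and 122 in positive cells and 19.5 and 70.9 in negative cells. Relative to kappa, both stood higher in both positive libraries. Iglc1, at 7.11 and 6.42 per 100 Igkc reads in positive cells, lay just above its 2.36 and 6.15 in negative cells. Ighd, at 20.2 and 6.30 per 100 Igkc reads in positive cells against 3.22 and 7.86 in negative cells, overlapped. Ighm, at 1311 and 98.5 or at 284 and 455 in TdTomato-positive libraries, against 131 and 263 in negative cells, overlapped under the first assignment and lay above both negative libraries under the second. Relative to Jchain, Igha had 68.2 and 114 reads per 100 Jchain reads in positive cells and 207 and 288 in negative cells. These ratios were not tested beyond the values of the 4 libraries.

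**Figure D3:**
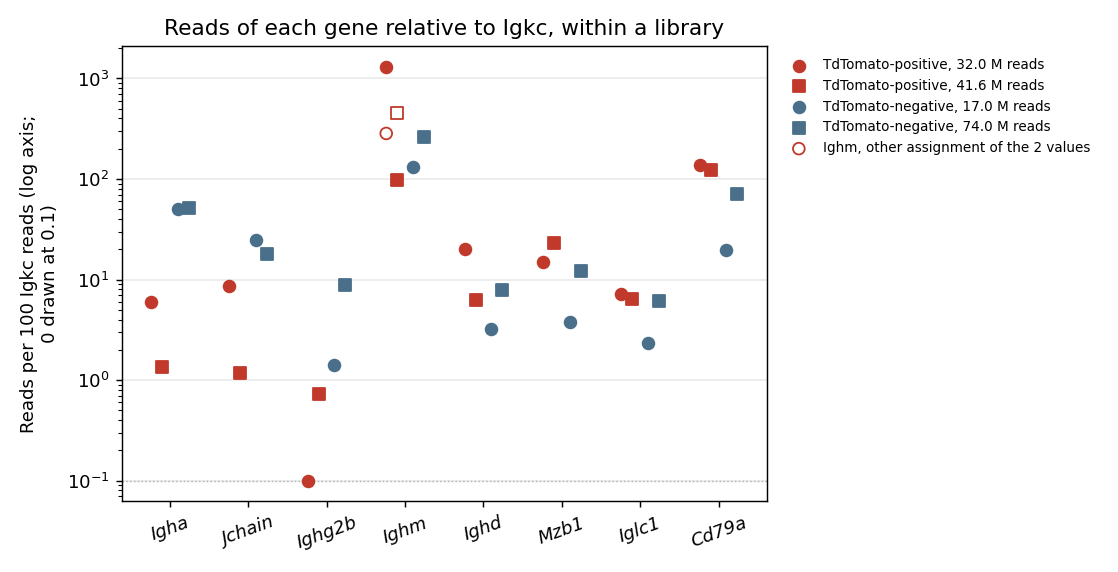
Reads of each gene per 100 Igkc reads in the same library, on a log axis with 0 drawn at 0.1. Red points are TdTomato-positive and blue points TdTomato-negative libraries, and open points show the other assignment of Ighm. Igha and Jchain are lower in both positive libraries than in both negative ones, whereas Mzb1 and Cd79a are higher.

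The wider plasma cell list had a median close to that of all genes. Of 41 further plasma cell genes, 40 had reads, 24 of them lower and 16 higher in positive cells. Their median log2 fold was -0.11, beside -0.03 over all genes with any read. Of the 40, 0 passed the FDR of the authors' deposited table and 0 had an unadjusted p below 0.05 in it. Both positive libraries lay below both negative ones in 8 of the 40 genes, against 11.4% of all genes with any read, and above both in 5, against 12.4%. Many of these genes serve protein folding and secretion in any secretory cell. Xbp1, the transcription factor that expands the secretory apparatus, lay at 35.4 to 48.3 RPKM in positive cells under either assignment, against 33.9 and 36.9 RPKM in negative cells, with a p of 0.901 in the authors' deposited table.

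Among the regulators and receptors of plasma cells, Prdm1 and Tnfrsf17 were read below the offset of 0.1 RPKM in every library. Prdm1, the factor that drives plasma cell differentiation, was at 0.0305 and 0.0203 RPKM in positive cells and 0.0555 and 0.0673 RPKM in negative cells. Both positive libraries lay below both negative ones, and the p was 0.778 in the authors' deposited table. Tnfrsf17, the survival receptor BCMA, had 7 and 0 reads in positive cells and 0 and 18 in negative cells. Irf4, a factor of activated B cells and plasma cells, was at 0.0990 and 0.595 RPKM in positive cells and 0.136 and 5.38 RPKM in negative cells, with overlapping groups and a p of 0.245 in the authors' deposited table. At such levels the deposited folds are held near 0, so a difference in Prdm1 or Tnfrsf17 was not detectable on that scale. Summed over 7 plasma cell markers, Xbp1 among them, the level was 41.7 and 54.9 RPKM in positive cells and 41.4 and 70.6 RPKM in negative cells, with 5 of the 7 lower. Without Xbp1 the sum was 4.60 and 8.71 RPKM in positive cells and 7.49 and 33.7 RPKM in negative cells, with overlapping groups. The markers of plasma cells thus did not move together, with Jchain lower and Sdc1 higher in positive cells.

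Genes of B cells were mostly lower. Of 18 B-cell genes, which take 19 rows because Cd37 has 2, 17 rows had a lower and 2 a higher value, where 52.6% of all genes with any read were lower, and the median log2 fold was -1.02. Both positive libraries lay below both negative ones in 10 rows, against 11.4% of all genes with any read. Of the 19 rows 0 passed the FDR of the authors' deposited table, with 1 at an unadjusted p below 0.05, against 0.533% of genes with any read lower at that p. That gene, Spib, a transcription factor of B cells and plasmacytoid dendritic cells, was at 0.577 and 3.14 RPKM in positive cells and 5.48 and 26.0 RPKM in negative cells, with a p of 0.0341 in the authors' deposited table. Ms4a1, which encodes CD20, was at 0.149 and 0.447 RPKM in positive cells and 0.526 and 2.58 RPKM in negative cells, without overlap. Cd79a, at 4.52 and 15.1 RPKM in positive cells and 5.26 and 50.6 RPKM in negative cells, overlapped. The 2 higher rows were Cd74, with a log2 fold of 1.16, and H2-Aa, with 1.53, both with overlapping groups. In the authors' deposited table their p was 0.440 and 0.304. Summed over the 19 rows the groups also overlapped, at 153 to 575 RPKM in positive cells and 54.6 to 1062 RPKM in negative cells under either assignment.

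Precursor B-cell genes were all lower, but with overlap in most. Of 10 pro-B and pre-B genes 10 had a lower value, their median log2 fold being -1.18, where 52.6% of all genes with any read were lower. None passed the FDR of the authors' deposited table, and 1 had an unadjusted p below 0.05 in it, where 0.533% of genes with any read were lower at that p. This was Rag1, a subunit of the recombinase that assembles antibody genes, at 0.0167 and 0.268 RPKM in positive cells and 0.415 and 3.83 RPKM in negative cells, with a p of 0.0475 in the authors' deposited table. It was also the only 1 of the 10 whose groups did not overlap, a share near the 11.4% of all genes. Of the other constant region genes, 5 of the 6 rows had reads and all 5 had a lower value. Only 1 of the 5 was without overlap, Ighg3 with 0 reads in both positive libraries, against 11.4% of all genes with any read. The median log2 fold of the 5 was -2.54, also with those at 0 in positive cells at their bounds.

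**Figure D4:**
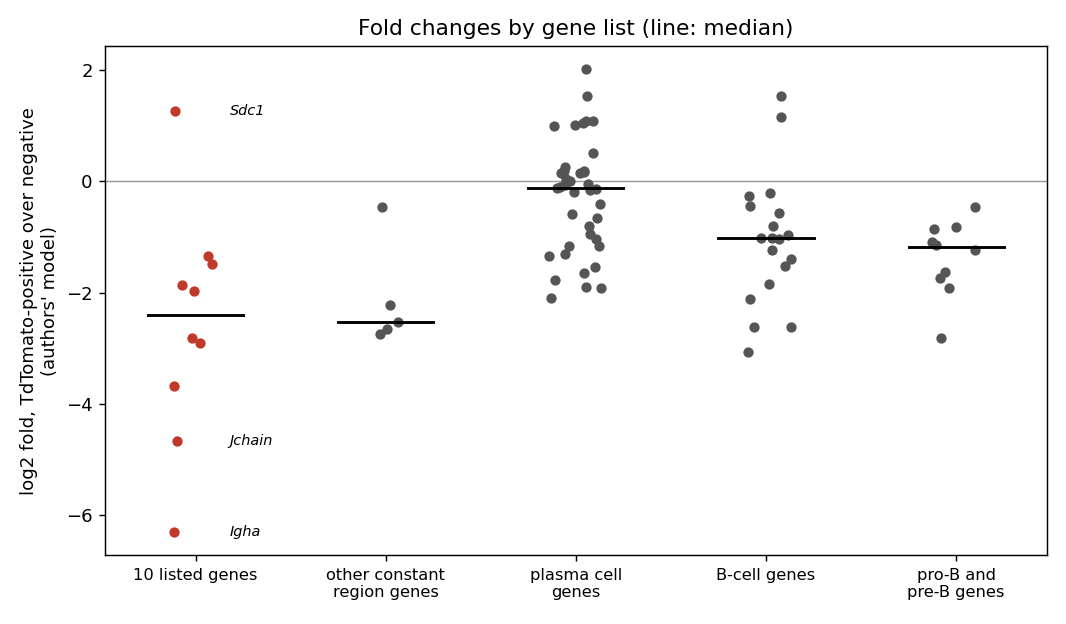
The log2 fold of each gene, TdTomato-positive over negative, from the authors' deposited table, for the 10 listed genes (red) and 4 further lists (grey), with black lines at the medians. The 10 genes have a median of -2.40 and the plasma cell list one of -0.11, and Igha, Jchain and Sdc1 are labelled.

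The genes whose pattern over the 4 libraries was most like that of Igha, Jchain and Igkc were then sought. Candidates were resolved genes not annotated as immunoglobulin genes, with a level of at least 1 RPKM in 1 library or more. The measure was the Euclidean distance between centred log2(level + 0.1) values. Among 4795 candidates the nearest to Igha was Jchain at a distance of 1.70, followed by Gsg2 at 2.12, Epx at 2.13, Alox15 at 2.31 and Gm42466 at 2.45. Gsg2 encodes the mitotic kinase haspin, Epx is the peroxidase of eosinophils and Alox15 is a lipoxygenase. Among 4794 candidates the nearest to Jchain were Gm42466 at 0.768, Amer2 at 1.29, Gm11698 at 1.34, Gsg2 at 1.40 and Gm26930 at 1.41. Igkc had closer neighbours, Ercc6l at 0.215, Olfm4 at 0.281, Itgal at 0.289, Ppp1r3b at 0.300 and Sh2d3c at 0.347, among them a neutrophil granule protein (Olfm4) and a leukocyte integrin chain (Itgal). Distances over 4 libraries describe these libraries only, and how many genes lie at similar distances was not counted.

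Markers of other cell types are given beside these genes. Of 22 markers of eosinophils, T cells, neutrophils and erythroid cells 0 passed the FDR of the authors' deposited table, the smallest FDR being 0.170, for the eosinophil gene Prg2. All 4 eosinophil markers were lower, with summed levels of 1.07 and 11.0 RPKM in positive cells and between 158 and 349 RPKM in negative cells under either assignment, and 2 of them were at 0 in the positive library of 32.0 M reads. All 4 T-cell markers were lower, with sums of 0.169 and 0.489 RPKM in positive cells and 1.78 and 1.67 RPKM in negative cells. All 8 neutrophil markers were lower, with sums of 3378 to 14157 RPKM in positive cells and 6121 to 42713 RPKM in negative cells, none at 0 in any library. All 6 erythroid markers were lower, with sums of 8242 to 37571 RPKM in positive cells and 8558 to 164476 RPKM in negative cells. The 5 skeletal stroma markers were all higher in positive cells, 2 of them with an FDR below 0.05 in the authors' deposited table, with sums of 968 to 4628 RPKM, against 1.02 to 472 RPKM in negative cells. Sox9, whose locus drives the label, was at 16.4 and 4.51 RPKM in positive cells and 3.32 and 0.0244 RPKM in negative cells. The part of these other cell types in the levels of the immunoglobulin and plasma cell genes was not tested.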

How the data were processed

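RNA of 2 TdTomato-positive and 2 TdTomato-negative libraries was sequenced as 75-nt paired reads, per the labels' protocols. STAR, Partek and mm10 are named in the submitters' processing notes. Neither their versions nor the counting strand is given in the sources used here. The authors deposited 1 table, with 47643 genes in 29 columns, of their positive against negative comparison. Its columns, per the file headers, are group means and a maximum of a normalized signal, a sum as a score, a natural log difference, a ratio, a signed fold as a score, and p-values and step-up FDR of their lognormal model. Single libraries have no column.

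From both group means, the maximum and the natural log difference, the values of the 4 libraries were solved, with 1 solution for each of the 47643 genes. The values matched (RPKM per genomic span + 0.1) divided by span and depth once more. This scale, the offset of 0.1 and the depths, found from 3104 genes without reads, are inferences from the values, since no header states them. The Akaike criterion, not used in the solution, ran from -88.7 to 73.3, and from 24.5 to 25.8 once 2 times the sum of the natural logs of the solution was taken off. A group's 2 values were assigned to libraries by whole reads, with a tolerance of 0.01 reads plus a relative 1e-07 and at most 0.05, by a single value whole within 0.002, or by negative reads under the alternative. This settled 11713 of 17199 genes (68.1%) with at least 10 reads in 2 libraries, and 9 of the 10 genes reported, all but Ighm. Of their 40 values 34 were whole within 0.05 reads. The solution and limma were tested on simulated data.

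The log2 fold is the authors' natural log difference divided by the natural log of 2, and a gene without reads sits at -0.04. The main test was the authors' deposited p-value and FDR, two-sided at 0.05 over all genes. Limma (3.58.1, R 4.3.3) on log2(level + 1) was the alternative. In the authors' model genes of similar fold could have a similar p despite unlike spread. Rag1, at a log2 fold of -2.82, had a p of 0.0475, and the T-cell marker Cd3e, at -2.77, had 0.0514. Cd3e, at 0 and 0.00443 RPKM in positive cells and 0.576 and 0.579 RPKM in negative cells, spread less within groups than Rag1. Python 3.11.15, numpy 2.4.6, pandas 2.3.3 and scipy 1.17.1 were used. Shares have exact Clopper-Pearson 95% intervals, and a count of 0 allows 3 reads. Shares take whole numbers of reads for the heavy chains, and ratios take the solved reads unrounded. Exon lengths are unions of GENCODE M21 exons. All 10 genes are named, and of the other lists genes with an unadjusted p below 0.05 and no overlap, at most 8, and Prdm1, Xbp1, Irf4, Tnfrsf17, Ms4a1, Cd79a and the other constant regions. Genes named as markers of other cells, Cd74, H2-Aa and the overlapping gene Gm43291 were added after their values were seen. The genes and lists were chosen with earlier results of these data known. Ighg2a was not analysed here, and 1 further gene of the naming rule is not reported here.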

Additional observations from a re-analysis of the deposited data

How the results depend on the processing

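Over 111 alternative log2 folds of the 10 genes (offset, filter, assignment, libraries left out, replicate block, ratio of means), 110 kept their direction. The exception was Mzb1, at 0.26 in limma when the negative library of 74.0 M was left out, and the cause was not tested. Many of the 111 could not differ. The filter and the replicate block leave a gene's fold as it is, and the other assignment changes only Ighm. The Igha fold, for example, was -4.19 in all of these settings on log2(level + 1). The count of 110 is therefore not a measure of robustness. Limma called 0 genes at an adjusted p below 0.05 in all 11 settings. At an unadjusted p below 0.05 it held 685 genes lower and 1298 higher with all genes that had a read, and the balance turned with the library left out, with 2749 lower and 981 higher without the negative library of 17.0 M and 424 lower and 2510 higher without the positive library of 41.6 M. Over all settings the counts ran from 248 to 2749 lower and from 336 to 2510 higher. The authors' FDR called 0 of the 10 genes and their unadjusted p called 4. Leaving out each library in turn, limma log2 folds ran from -4.87 to -3.50 for Igha, -2.94 to -2.13 for Jchain and -3.69 to -1.82 for Igkc, with an adjusted p of 0.241 to 0.724 for Igha. For the others they ran from -2.98 to -0.59 for Ighm, -3.06 to -0.44 for Iglc1, -1.48 to -0.08 for Ighd, -2.04 to -0.09 for Ighg1, -2.78 to -0.39 for Ighg2b, -2.40 to 0.26 for Mzb1 and 0.47 to 1.17 for Sdc1. The values nearest 0 in the genes that were lower came without the negative library of 74.0 M reads, except for Igkc and Mzb1, where they came without the positive library of 32.0 M, at -1.82 and -0.16. In these fits the lone library of a group is assumed to vary like the others. Leaving out any 1 library called 0 of the 10 genes.

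No value carries a collection number, so both possible pairings of the libraries were taken as a replicate block in limma, on resolved genes only, which leaves out Ighm. The adjusted p of Igha was 0.460 with the 32.0 M library paired with that of 17.0 M, and 0.987 with the other pairing, and that of Jchain was 0.472 and 0.987, so no call changed.

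The Igha share of heavy chain reads in the positive libraries of 32.0 and 41.6 M reads was 1.91% and 0.288% with the other assignment of Ighm and 0.669% with both pooled. In the negative libraries of 17.0 and 74.0 M reads it was 22.6% and 12.6% from levels per genomic span, 20.9% and 11.5% per exon length, an alternative chosen after seeing the data, and 15.9% pooled. By libraries without overlap, in place of the unadjusted p, 1 of 5 other constant regions with reads was lower. So were 8 of 40 plasma cell genes and 10 of 19 B-cell rows, against 11.4% of all genes with any read. The FDR called 0 B-cell and 0 pro-B and pre-B genes, and 0 pro-B and pre-B genes were called among those with at least 1 RPKM in 2 libraries. Depth limits what a count of 0 shows, and 3 reads of Ighg1 in the positive library of 32.0 M correspond to 0.0178 RPKM.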
